A study of Oreochromis mossambicus with 6 samples.

Results

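Na+/K+-ATPase (Nka) subunit genes were examined in the gill filaments of hypophysectomized Mozambique tilapia (Oreochromis mossambicus) injected with ovine prolactin (oPrl) or saline vehicle. A gene was included when its symbol in the deposited table named an alpha or beta subunit (atp1a or atp1b followed by a digit) and it held at least 100 counts over the 6 libraries. Of 32591 genes in the table, 9 had such a symbol and 6 reached the limit. These were the alpha genes atp1a1b and atp1a3a and the beta genes atp1b1b, atp1b1a, atp1b3b and atp1b3a. The limit lay between atp1b3a, with 124 counts in all, and atp1b4, with 54. The genes under it held 54 counts or fewer and are not described further. The rule reads symbols, so that the 15381 genes without one could not be members.

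Every fish was a wild type male of 80 to 110 g whose pituitary, the source of circulating Prl, had been removed by the transorbital route. Fish age was not given. After 5 days of recovery at 12 ppt, fish were injected 3 times into the body cavity, 48 h apart, with oPrl at 5 μg per g of body weight or with saline, and filaments were taken 24 h after the last injection. Both groups therefore lacked a pituitary, and the 3 oPrl and 3 vehicle libraries came from single fish, a subset of 8 fish per treatment.

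Nka sits in the basolateral membrane of gill ionocytes, where it exports Na+ and imports K+ at the cost of ATP. The alpha subunit binds ATP and carries the ions, and the beta subunit is a glycoprotein that brings the alpha subunit to the membrane. The gradient that the pump builds drives ion secretion in seawater (SW) and ion uptake in fresh water (FW).

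Libraries held 21643589 to 35976655 counts on genes. Counts were put on a common scale by TMM, a method that assumes most genes do not change, and are given below as CPM. CPM was not divided by gene length, because lengths were not used here. A share is thus a share of counts and not of transcripts, whereas a fold change in the ratio of a pair of genes does not depend on their lengths. Epithelial and ionocyte genes were present in every library, with summed levels of 5995 CPM or more for epcam, krt5 and krt8 and of 185 CPM or more for foxi1, foxi3b and gcm2. In a tissue sample, fewer cells of a type and less RNA per cell cannot be told apart.

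The quasi-likelihood test of edgeR was run on all genes, and a gene was called when its adjusted p was under 0.01 and its log2 fold change was beyond 1 in either direction. None of the 6 subunit genes was called, compared with 1.4% of the 24878 genes tested. At an unadjusted p under 0.05 there were 2 of 6, both lower with oPrl, compared with 21.7% of all genes. At an adjusted p under 0.05 with no fold limit, 1 of 6 was lower, compared with 2.83% of all genes. DESeq2 called 1 of 6 at the main limits, compared with 6.01% of all genes. Here and below, 6.01% is a share of all 24878 genes. It includes genes that DESeq2 gave no adjusted p and so could not call. The log2 fold changes of the members ran from -1.15 to 0.91 with a median of -0.06, and the median of all genes was 0.02.

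**Figure D1:**
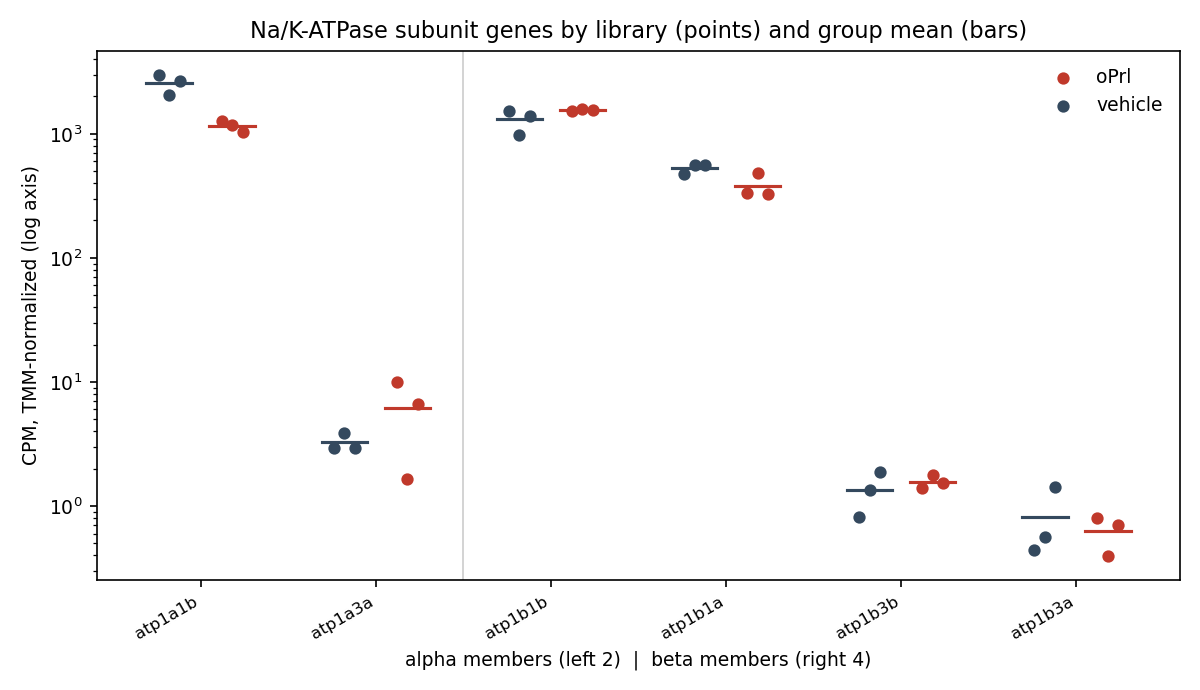
Levels of the 6 subunit genes, in CPM on a log axis. Each point is 1 library and each bar the mean of a group of 3. The groups were apart for atp1a1b, at 1030 to 1261 CPM with oPrl and 2058 to 2987 with vehicle, and overlapped for the other 5 genes.

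The alpha gene atp1a1b (ENSONIG00000012456) held more counts than the other alpha member in each library. The authors counted unique reads, and reads that match several closely related genes alike could not be assigned, so that its level is uncertain. Its level was 1261, 1178 and 1030 CPM in oPrl replicates 1, 2 and 3, and 2987, 2058 and 2666 CPM in vehicle replicates 1, 2 and 3. Every oPrl library lay below every vehicle library, and the groups were likewise apart in 29% of all genes tested. Group means were 1156 ± 117 CPM for oPrl and 2570 ± 472 CPM for vehicle (SD, n = 3 each). On the log2 scale the change was -1.15 ± 0.17 (SE), with a 95% interval of -1.56 to -0.75. By edgeR the adjusted p was 0.0123, above the limit of 0.01, whereas DESeq2 gave -1.19 with an adjusted p of 1.3e-06. Leaving out single libraries gave values of -1.32 to -1.05.

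Epithelial genes, like atp1a1b, had lower means with oPrl, and within the groups the order of libraries was alike only in part. The most abundant of them, krt5, was lowest in oPrl replicate 1 (2970 CPM) and highest in vehicle replicate 2 (6953 CPM). There atp1a1b had its highest oPrl level and its lowest vehicle level. Among oPrl fish krt8 was lowest in replicate 3 (1512 CPM), as atp1a1b was. Among vehicle fish epcam was highest in replicate 1 (2371 CPM), as atp1a1b was. At the other ends of the group ranges krt8 and epcam differed from atp1a1b. With 3 fish per group such orders are a description only. Levels of epcam alone overlapped between the groups. The summed level of epcam, krt5 and krt8 was 5995 to 9106 CPM with oPrl and 11025 to 11985 CPM with vehicle, so that these groups were apart as well. None of the 3 genes was called by edgeR or DESeq2, and at an unadjusted p under 0.05 there were 3 of 3, compared with 21.7% of all genes. The ionocyte transcription factors foxi1, foxi3b and gcm2 summed to 214 to 268 CPM with oPrl and 185 to 263 CPM with vehicle, and these ranges overlapped. The part of either cell type in the level of atp1a1b was not tested.

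The alpha gene atp1a3a (ENSONIG00000038668), whose mammalian counterpart is the neuronal form, was measured at 10.03, 1.66 and 6.68 CPM in oPrl replicates 1, 2 and 3. In vehicle replicates 1, 2 and 3 it was at 2.91, 3.89 and 2.95 CPM. The oPrl fish spanned the vehicle range, with replicate 2 below it and replicates 1 and 3 above it. The log2 fold change was 0.91 ± 0.58 (SE), and its 95% interval of -0.45 to 2.26 covered changes in either direction (adjusted p = 0.426, edgeR). Leaving out oPrl replicate 2 gave 1.36 (adjusted p = 0.055, edgeR), and leaving out oPrl replicate 1 gave 0.36. Neuronal and glial genes were at very low levels, with a summed level of 1.75 to 2.75 CPM with oPrl and 4.89 to 5.95 CPM with vehicle over 9 genes, of which gfap had no counts. Most of this gap lay in plp1b, a myelin gene, with a log2 fold change of -2.61 and a mean of 0.488 CPM with oPrl, which DESeq2 called (adjusted p = 5.0e-04) and edgeR did not (adjusted p = 0.0608). Neuronal genes did not share a direction. Means in oPrl and vehicle fish were 0.615 and 0.459 CPM for stmn2b, 0.196 and 0.301 for snap25a, and 0.079 and 0.078 for stmn2a. Every oPrl library lay below every vehicle library for snap25a, as the groups were apart in 29% of all genes tested. The groups overlapped for stmn2b and stmn2a. The part of neuronal and glial genes in the level of atp1a3a was not tested. Because genes without a symbol are not counted, the levels of both alpha members do not add up to a total of alpha subunit RNA, and no such total or alpha to beta ratio is given.

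The beta gene atp1b1b (ENSONIG00000032786) held the largest number of beta counts in each library. Its level was 1512, 1595 and 1566 CPM in oPrl replicates 1, 2 and 3, and 1536, 983 and 1398 CPM in vehicle replicates 1, 2 and 3. The oPrl fish lay close together and vehicle replicate 1 fell within their range. The log2 fold change was 0.25 ± 0.18 (SE), with a 95% interval of -0.17 to 0.67 (adjusted p = 0.474, edgeR). Without vehicle replicate 2, the lowest library, it was 0.06, and with scaling by library totals it was 0.43 (adjusted p = 0.145, edgeR).

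The beta gene atp1b1a (ENSONIG00000019331) was at 334, 479 and 327 CPM in oPrl replicates 1, 2 and 3, and at 478, 563 and 561 CPM in vehicle replicates 1, 2 and 3. The groups overlapped only where oPrl replicate 2 met vehicle replicate 1. Its log2 fold change was -0.49 ± 0.19 (SE), with a 95% interval of -0.93 to -0.06, and edgeR did not call it (adjusted p = 0.183). Leaving out oPrl replicate 2 gave -0.69 (adjusted p = 0.0463, edgeR). Leaving out any other single library gave -0.58 to -0.39 (adjusted p = 0.251 to 0.409, edgeR).

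The split of beta counts between these paralogs separated the groups. The share of atp1b1b was 81.8%, 76.8% and 82.6% in oPrl replicates 1, 2 and 3, and 76.2%, 63.5% and 71.2% in vehicle replicates 1, 2 and 3. Each oPrl fish was above each vehicle fish, although oPrl replicate 2 and vehicle replicate 1 were less than a percentage point apart. Groups were likewise apart in 29% of all genes tested, and neither paralog was called by edgeR on its own. The means were 80.4% ± 3.14 and 70.3% ± 6.39 (SD, n = 3 each), a difference of 10.1 percentage points (exact permutation test, two-sided, p = 0.1, the smallest p possible). The ratio of atp1b1b to atp1b1a was 4.22 ± 0.779 with oPrl and 2.48 ± 0.732 with vehicle, a 1.73-fold difference between geometric means (exact permutation test, p = 0.1). This ratio nearly restates the share, because atp1b3b and atp1b3a each held 0.096% of beta counts or less in any library.

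**Figure D2:**
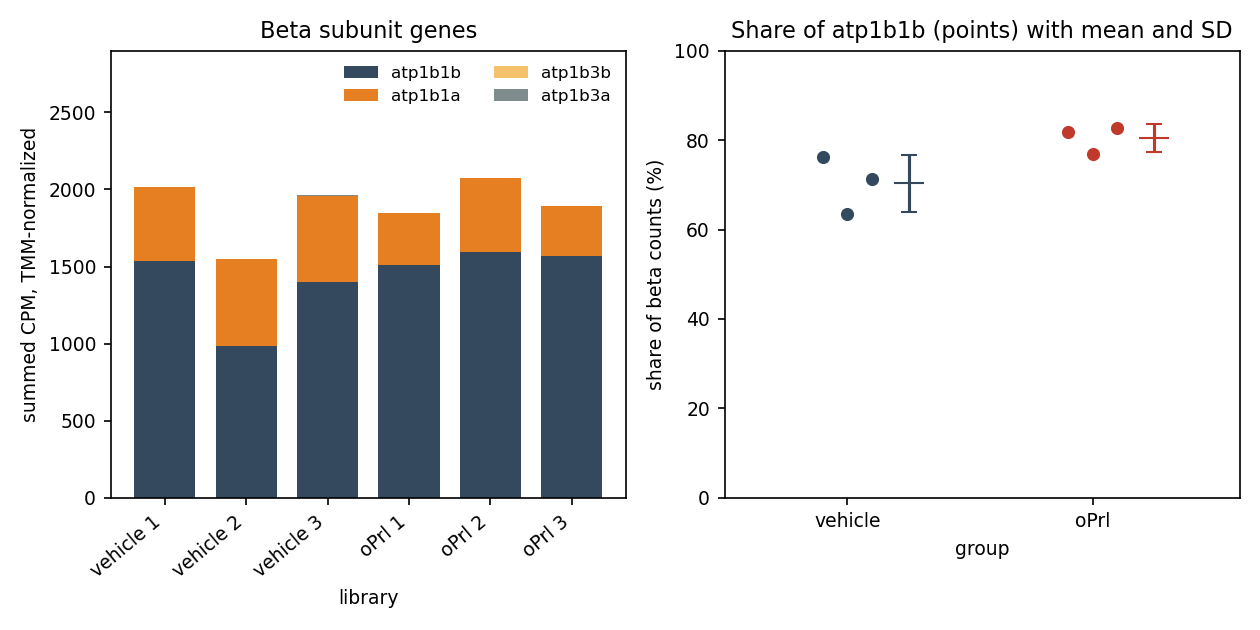
Left, summed levels in CPM of the 4 beta genes, 1 bar for each library. Right, the share of atp1b1b in the beta counts of each library as points, with the mean and SD of each group of 3. Bar heights of the groups overlapped, at 1848 to 2076 CPM with oPrl and 1548 to 2015 CPM with vehicle, whereas the share was 76.8% to 82.6% with oPrl and 63.5% to 76.2% with vehicle.

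The beta-3 genes had few counts. The level of atp1b3b (ENSONIG00000033128) was 1.39 to 1.78 CPM with oPrl and 0.81 to 1.88 CPM with vehicle, and that of atp1b3a (ENSONIG00000027418) was 0.399 to 0.799 and 0.445 to 1.42 CPM. The groups overlapped for both. Log2 fold changes were 0.23 with a 95% interval of -0.73 to 1.19 for atp1b3b and -0.34 with an interval of -1.69 to 1.02 for atp1b3a (adjusted p = 0.809 and 0.796, edgeR). Changes within these intervals could not be told from 0 with these libraries.

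**Figure D3:**
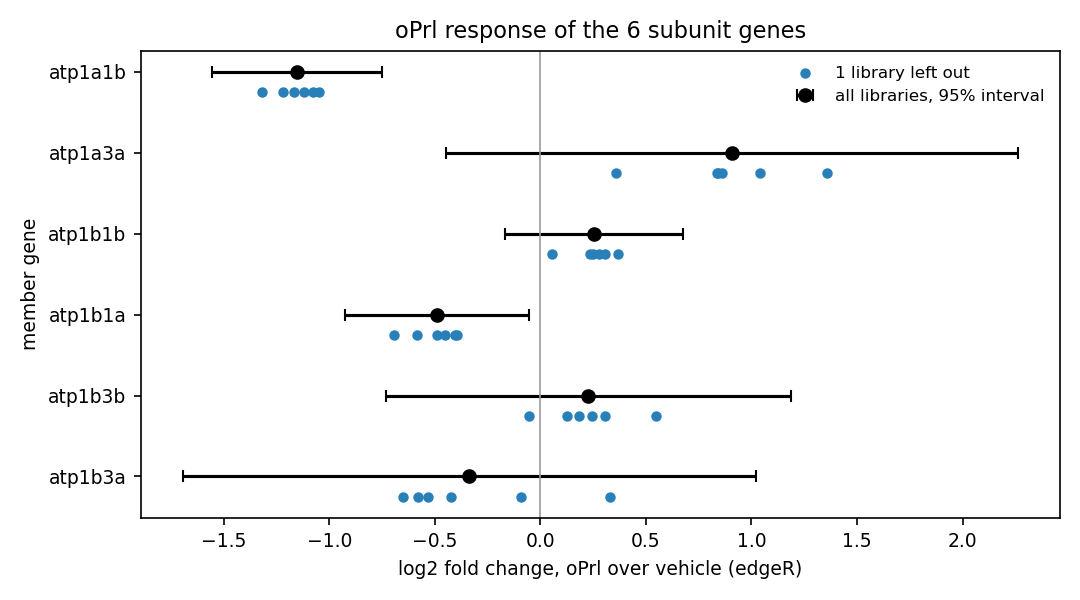
Log2 fold change of each subunit gene, oPrl over vehicle, by edgeR. Black points and bars are the estimate and its 95% interval with all 6 libraries, and blue points are the estimates with 1 library left out. The interval was below 0 for atp1a1b, at -1.56 to -0.75, and for atp1b1a, at -0.93 to -0.06, and covered 0 for the other 4. Intervals are not adjusted for the number of genes, and 21.7% of all genes had an unadjusted p under 0.05 (edgeR). Neither gene was called by edgeR (adjusted p = 0.0123 for atp1a1b and 0.183 for atp1b1a).

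Summed over the 4 beta members, the level was 1848, 2076 and 1895 CPM in oPrl replicates 1, 2 and 3, and 2015, 1548 and 1962 CPM in vehicle replicates 1, 2 and 3. The ranges overlapped, with a log2 difference of 0.08 (exact permutation test, two-sided, p = 0.8), or 0.26 with scaling by library totals. This sum, and the shares above, cover beta genes with a symbol. As for atp1a1b, reads that match several closely related genes alike could not be assigned. The levels, shares and sum of the beta genes are thus uncertain as well.

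Genes that regulate the pump were next compared. Of 8 matched genes, which were fxyd6, nkain genes, sik1 and sgk kinases, 7 were tested and none was called, with a median log2 fold change of -0.70. At an unadjusted p under 0.05 edgeR gave 4 of 7, compared with 21.7% of all genes, and DESeq2 called 1, compared with 6.01%. The gene called by DESeq2 was SGK1, a kinase that raises Na+ transport in mammalian epithelia. Its level was 71.0, 202 and 81.1 CPM in oPrl replicates 1, 2 and 3, and 601, 516 and 485 CPM in vehicle replicates 1, 2 and 3. The groups were far apart, with oPrl replicate 2 nearest to the vehicle fish. The log2 fold change was -2.18 ± 0.40 (SE), with an adjusted p of 0.0239 by edgeR and 1.5e-06 by DESeq2. The only FXYD gene with a symbol was fxyd6, a family of small proteins that bind the pump and set its kinetics, at 0.127 CPM with oPrl and 0.212 CPM with vehicle. The gene nkain1, whose mammalian product binds the beta subunit, was lower in every oPrl library (mean 5.01 against 8.15 CPM) with an adjusted p of 0.19 (edgeR). Groups were likewise apart in 29% of all genes tested. Of the related H+/K+-ATPase subunits, ATP4A and ATP4B were at 0.03 CPM or less in either group and were not tested.

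Of transporters and channels that work beside the pump in ionocytes, 38 genes were tested, 20 of them for the V-type H+-ATPase. There were 3 calls among the 38, 1 higher and 2 lower with oPrl, none of them for the V-type H+-ATPase. The median log2 fold change of the 38 was 0.00, and that of the 20 V-type genes alone was 0.13. The first median is thus not that of the other partners. All genes gave 0.715% higher and 0.687% lower calls. DESeq2 called 5 of the 38, compared with 6.01% of all genes, adding the Na+/H+ exchanger slc9a2 and the carbonic anhydrase ca2. Their log2 fold changes by DESeq2 were -1.87 (adjusted p = 8.4e-08) and -1.83 (adjusted p = 0.0025), and by edgeR the adjusted p was 0.0145 and 0.088. The gene slc4a4b, a Na+/HCO3- cotransporter, was at 181, 184 and 284 CPM in oPrl replicates 1, 2 and 3, and at 49.1, 55.5 and 71.5 CPM in vehicle replicates 1, 2 and 3. It rose in every oPrl fish relative to every vehicle fish, by 1.88 ± 0.24 (SE) on the log2 scale (adjusted p = 0.00753, edgeR).

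The gene kcnj1a.6, of the Romk family of K+ channels, was at 39.1, 43.6 and 38.9 CPM in oPrl replicates 1, 2 and 3, and at 360, 258 and 161 CPM in vehicle replicates 1, 2 and 3. It fell by 2.68 on the log2 scale (SE 0.29, adjusted p = 0.00475, edgeR). The inward rectifier kcnj16 fell as well, by 2.24 on the log2 scale (SE 0.30, adjusted p = 0.00838, edgeR). For both channels, as for slc4a4b, the groups did not overlap, which held for 29% of all genes tested. With any single library left out, slc4a4b and kcnj16 kept their direction but were no longer called (adjusted p = 0.0131 to 0.048, edgeR), and kcnj1a.6 was called only without vehicle replicate 3 (adjusted p = 0.00702 to 0.031). Calls over all genes fell as well in these fits, from 349 to between 0 and 215. The 20 genes for the V-type H+-ATPase, counted among the ionocyte partners, had a median log2 fold change of 0.13. None of the 20 was called by edgeR or DESeq2, compared with 1.4% and 6.01% of all genes. At an unadjusted p under 0.05 there were 3 (edgeR), compared with 21.7% of all genes. Log2 fold changes ran from -1.84 to 1.16. Both ends were genes with few counts, ATP6V1B2 with 19 in all and atp6v0a2a with 213, and the rest lay between -0.38 and 0.83.

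**Figure D4:**
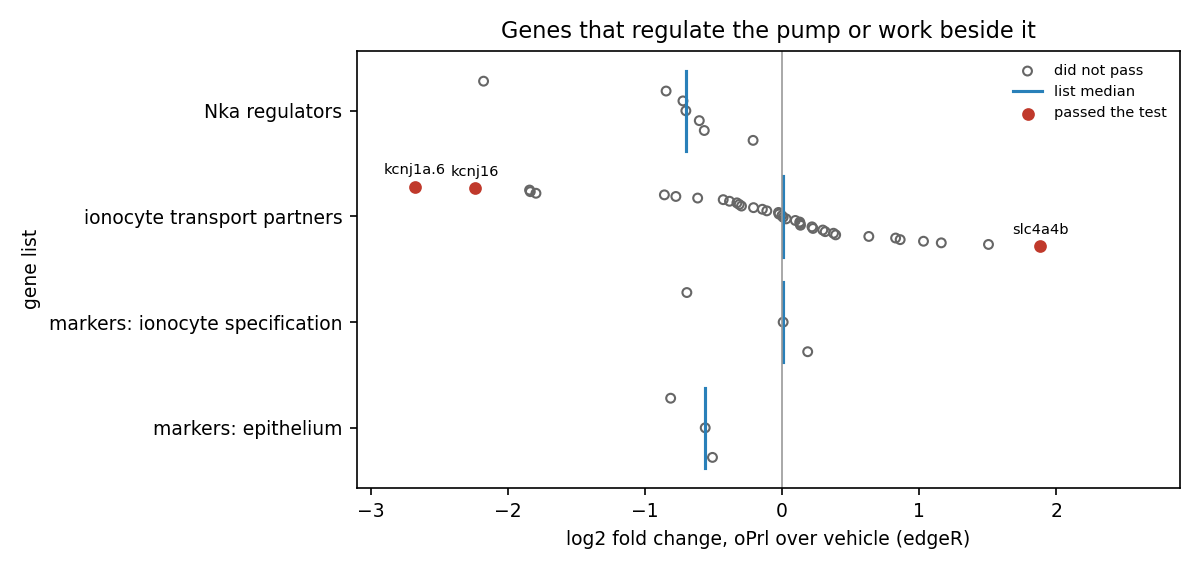
Log2 fold changes, oPrl over vehicle, of genes in 4 lists. Each circle is a gene, filled where it passed the test, and each blue line is the median of a list. The called genes were slc4a4b at 1.88, kcnj1a.6 at -2.68 and kcnj16 at -2.24. The medians of the pump regulators and of the ionocyte partners were -0.70 and 0.00, the latter with 20 V-type H+-ATPase genes included.

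Genes whose levels followed those of the abundant subunits were sought among 8714 genes with a symbol and at least 10 CPM. Over the 6 libraries, which differ by treatment, log2 CPM of atp1a1b correlated best with dlst, atg4c and usp2b (Pearson r = 0.997, 0.997 and 0.995). For atp1b1b these were gig2p, smchd1 and SLC39A11 (r = 0.979, 0.973 and 0.963). With so many candidates and 6 libraries such values are a description only.

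The summed levels of the remaining marker lists overlapped between groups. Leukocyte genes summed to 1181 to 1369 CPM with oPrl and 1104 to 1463 with vehicle, erythrocyte genes to 92 to 179 and 74.4 to 154, skeletal muscle genes to 45.1 to 91.6 and 5.88 to 241, and vessel and smooth muscle genes to 774 to 911 and 878 to 1026. No gene of these lists was called by edgeR or DESeq2. At an unadjusted p under 0.05 there were 2 of 5 genes in the vessel list, compared with 21.7% of all genes, and none in the others. These 2 went opposite ways, cdh5 with a log2 fold change of 0.53 and tagln with -0.37. Groups were apart for 3 of 5 vessel genes and 2 of 10 skeletal muscle genes, compared with 29% of all genes tested.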

How the data were processed

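RNA from gill filaments of 6 fish was sequenced as paired reads. The authors trimmed adapters with Trimmomatic 0.36, mapped reads with STAR 2.5.2b to the Nile tilapia genome from Ensembl, a related species, and deposited raw counts per gene, of reads mapped uniquely, made with featureCounts (Subread 1.5.2). The genome build is not given in the sources used here, nor is the strand setting, and antisense reads could not be separated. A row without a gene ID, 0.0901% to 0.135% of a library, was left out. Of 32591 genes, 15381 have no symbol.

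Genes with at least 10 counts in all were tested with edgeR 4.0.16 (TMM, quasi-likelihood, Benjamini-Hochberg over all genes) in R 4.3.3. Standard errors and 95% intervals were derived from the quasi-likelihood F statistic. DESeq2 1.42.0, the study's tool, other scalings and filters, a replicate block and leaving out each library were alternatives. Shares and sums were compared over libraries by exact permutation tests (scipy 1.17.1). As a check of the code, the edgeR and DESeq2 steps were run on simulated counts with planted changes. The outcome is not given here and no result rests on it. Named genes were all members, list members, the 3 genes closest in pattern to the most abundant alpha and beta member and the symbols beside the 100-count limit. Members and lists were chosen with earlier results of these data known. Certain items, with the sums and shares over alpha genes that need them, are not reported here. Libraries of a group differed by more than sampling noise (chi-square per degree of freedom 26.3 to 98.6). The edgeR and DESeq2 p-values weigh the group difference against this spread between fish, estimated in part from all genes. No sequences or gene lengths were used here.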

Additional observations from a re-analysis of the deposited data

How the results depend on the processing

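Of 154 recomputed values, 21 were lost calls of slc4a4b, kcnj1a.6 and kcnj16, all in the same direction, in the fits with a library left out, with a replicate block or, for kcnj16, with scaling by library totals. The others kept their direction and side of the limit, or stayed within the replicate spread, but for those given next. The call for atp1a1b depended on the tool and the filter. Its log2 fold change was -1.19 with DESeq2 (adjusted p = 1.3e-06), -1.14 with no count filter (adjusted p = 0.00928, edgeR) and -1.17 with edgeR's filterByExpr (adjusted p = 0.00982), each of which called it and gave 1 member lower in place of 0. At an adjusted p under 0.05 with no fold limit, 1 member was also lower. No setting called a member as higher.

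With each library left out, log2 fold changes ran from -1.32 to -1.05 for atp1a1b (adjusted p = 0.0166 to 0.0707, edgeR), 0.36 to 1.36 for atp1a3a, 0.06 to 0.37 for atp1b1b, -0.69 to -0.39 for atp1b1a, -0.055 to 0.55 for atp1b3b and -0.65 to 0.33 for atp1b3a. Direction turned for atp1b3b without vehicle replicate 1, at -0.055, and for atp1b3a without vehicle replicate 3, at 0.33. Log2 differences ran from -0.038 to 0.15 for summed beta CPM, where -0.038 came without vehicle replicate 2. Share differences ran from 6.7 to 13 percentage points for atp1b1b and -13 to -6.7 for atp1b1a. The causes were not tested.

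Scaling by library totals moved the all-gene median of log2 fold changes from 0.02 to 0.19 and that of atp1a1b to -0.97 (adjusted p = 0.0126, edgeR). Those of atp1b1b, atp1b3b and atp1b3a moved to 0.43, 0.40 and -0.13, and the summed beta difference went from 0.08 to 0.26. The value of atp1a3a became 1.11. For atp1b1a it became -0.33, with an unadjusted p of 0.0662 (edgeR), no longer under 0.05. Same-numbered fish did not deviate together (r = -0.10, -0.08 and -0.01), and fish with unlike numbers gave r of -0.05 to 0.14. With 3 fish per group this check could not settle whether the replicate number pairs fish. With the replicate number as a block, atp1a1b was at -1.14 (adjusted p = 0.036, edgeR), no member was called, and calls over all genes went from 349 to 30. Shares per coding length were not run for want of lengths, and the planned sums and shares with genes that lack a symbol are not reported.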
